A study of Mus musculus with 2 samples.

Results

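The 9 sterol ring enzyme genes described here carry squalene to cholesterol: Sqle, Lss, Cyp51, Msmo1, Nsdhl, Hsd17b7, Ebp, Sc5d and Dhcr7. They were chosen by gene name from the transcript tables of both libraries, and all 9 of 9 had reads in each library, among 16945 annotated mouse genes with a read. They held 146 of the 180557 transcript models, 93 in replicate 1 and 53 in replicate 2. Long-read RNA sequencing, in which each read follows 1 RNA molecule along its length, was applied to adrenal glands of female B6CASTF1/J mice, first-generation hybrids of the B6 and CAST strains, at 36 days of age. The only group had no treatment named in the labels and consisted of 2 libraries, biological replicates 1 and 2. Replicate 1 was made from 1 µg of RNA, and no quantity was recorded in the labels of replicate 2. One label gives both libraries the same animal number, and the donor identifier is shared, and another gives them different numbers, so every error and p-value below refers to these libraries. Whole glands were used, so fewer cells of a type and less RNA per cell cannot be told apart.

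The sterol ring pathway begins when Sqle adds an oxygen to squalene and Lss folds the product into lanosterol, the sterol with the first closed ring system. Cyp51, Msmo1, Nsdhl and Hsd17b7 then remove methyl groups from the rings, and Ebp, Sc5d and Dhcr7 move, introduce and reduce double bonds. In the adrenal cortex cholesterol is the starting material of all steroid hormones, and it is also taken up from lipoproteins.

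Replicate 1 held 1223776 reads and replicate 2 held 453761, of which 1676 and 540 came from the 9 genes. Levels are given in CPM, reads per 1000000 reads of annotated genes, which numbered 1144572 and 414588. A count of 0 allowed up to 3 reads, or 2.62 and 7.24 CPM. The 6 markers of the adrenal cortex (Nr5a1, Star, Cyp11a1, Cyp21a1, Cyp11b1 and Mc2r) were read in both libraries and summed to 54462 and 71616 CPM. The libraries differed in other marker lists: 4 markers of the medulla summed to 6289 and 4192 CPM, 4 of adipocytes to 3176 and 5495 CPM, and 4 of skeletal muscle to 822 and 4.82 CPM. Markers of capsule and stroma summed to 512 and 304 CPM, of macrophages to 142 and 98.9 CPM and of endothelium to 274 and 314 CPM. Liver markers had 17 and 0 reads, and kidney markers 2 and 0. Replicate 2 also had more reads from models of 1 exon, 25.9% against 18.8% in replicate 1. Part of every difference between the libraries given below may move with these values, which was not tested.

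The 9 genes summed to 1464 CPM in replicate 1 and 1303 CPM in replicate 2, or 1383 ± 114 CPM (SD, n = 2), 0.138% of the reads of annotated genes. The levels were uneven along the pathway. Dhcr7 and Msmo1 together held 59.7% of the sum in replicate 1 and 67.6% in replicate 2, and the highest member exceeded the lowest 13.3-fold and 29.6-fold.

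Of the entry steps, Sqle ranked above Lss. Sqle, squalene epoxidase (chr15:59315077-59331192, plus strand), had 85 and 33 reads, 74.3 and 79.6 CPM, a mean of 76.9 ± 3.77 CPM (SD, n = 2), the smallest SD of the 9. Lss, lanosterol synthase (chr10:76531588-76557138, plus strand), had 56 and 14 reads, 48.9 and 33.8 CPM, a mean of 41.3 ± 10.7 CPM. Their ranges over the libraries did not overlap. An antisense gene, 4930483K19Rik, overlaps Lss and had 0 reads in each library.

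Among the demethylation steps, Msmo1 stood apart. Cyp51, lanosterol 14-alpha-demethylase (chr5:4081145-4104746, minus strand), had 210 and 31 reads, 183 and 74.8 CPM, a mean of 129 ± 76.9 CPM. Its 3′ end overlaps that of Akap9, on the opposite strand, by 166 bp, and Akap9 had 40 and 1 reads. Msmo1, the C4-methyl sterol oxidase (chr8:64718139-64733792, minus strand), had 495 and 128 reads, 432 and 309 CPM, a mean of 371 ± 87.5 CPM. The next enzymes in the same reaction series were lower. Nsdhl, the dehydrogenase that removes the oxidised carbon (chrX:72918557-72958514, plus strand), had 40 and 8 reads, 34.9 and 19.3 CPM, a mean of 27.1 ± 11.1 CPM. Hsd17b7, the ketoreductase that closes each demethylation round (chr1:169949535-169969241, minus strand), had 38 and 23 reads, 33.2 and 55.5 CPM, a mean of 44.3 ± 15.8 CPM. Msmo1, Nsdhl and Hsd17b7 act in turn in each demethylation round, and Msmo1 lay above both others in each library without overlap.

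When all reads were counted, the last steps ended with the most abundant gene of the 9. Ebp, the sterol isomerase (chrX:8185329-8193512, minus strand), had 91 and 39 reads, 79.5 and 94.1 CPM, a mean of 86.8 ± 10.3 CPM. Sc5d, sterol C5-desaturase (chr9:42251595-42264256, minus strand), had 155 and 27 reads, 135 and 65.1 CPM, a mean of 100.3 ± 49.7 CPM. Dhcr7, 7-dehydrocholesterol reductase (chr7:143823145-143848410, plus strand), had 506 and 237 reads, 442 and 572 CPM, a mean of 507 ± 91.6 CPM. By mean CPM Dhcr7 ranked 299 of the 16945 genes, Msmo1 455 and Cyp51 1592, while Nsdhl, the lowest, ranked 5403.

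The order by mean CPM was Dhcr7, Msmo1, Cyp51, Sc5d, Ebp, Sqle, Hsd17b7, Lss and Nsdhl. Of the 8 pairs of neighbours in this order, 3 had ranges that did not overlap between the genes: Dhcr7 and Msmo1, Msmo1 and Cyp51, and Sqle and Hsd17b7. The ranges of the other 5 pairs overlapped, and Sc5d and Ebp, like Hsd17b7 and Lss, stood in opposite orders in the 2 libraries. The order was not tested. CPM was not divided by length, since 1 read stands for 1 RNA. Divided by the length of the most read annotated transcript, from 1.743 kb for Ebp to 4.787 kb for Sc5d, the order began with Msmo1 at 181 and Dhcr7 at 180.1 mean CPM per kb and ended with Lss at 8.86. That length for Dhcr7 is of a transcript with 1 read in each library. Divided by the 2346 bases of its most read spliced model, Dhcr7 led at 216 mean CPM per kb.

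**Figure D1:**
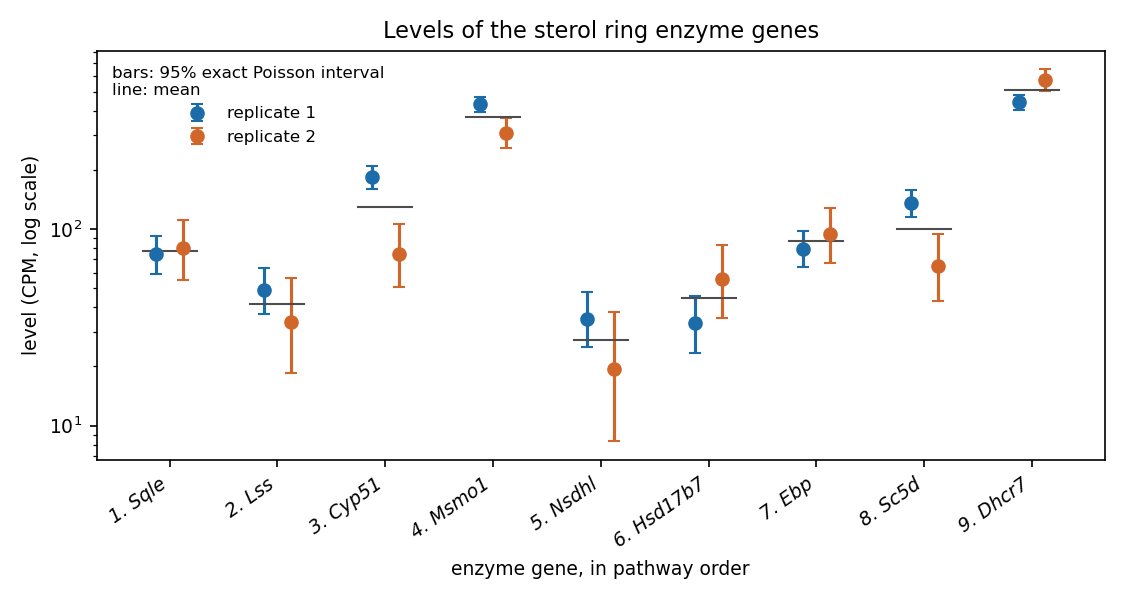
Levels of the 9 genes in pathway order, as CPM on a log axis, with 1 point per library, its 95% exact Poisson interval and a line at the mean. Msmo1 and Dhcr7 lie at 309 CPM or higher in both libraries and every other gene lies at 183 CPM or lower.

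Dhcr7 differed from the other 8 genes in the kind of model its reads were assigned to. A model was classed Known when its introns match an annotated transcript, NIC or NNC when it joins annotated splice sites anew or uses an unannotated one, ISM (incomplete splice match) when it holds part of an annotated chain, and Genomic otherwise. ISM models took 472 of 506 Dhcr7 reads in replicate 1, 93.3% (95% Wilson interval 90.8 to 95.2), and 214 of 237 in replicate 2, 90.3% (85.9 to 93.4). Known models took 2 reads in each library. Among the 3694 genes with at least 20 reads in each library the median ISM share was 5.88% in both, and 8 genes, Dhcr7 included, had an ISM share at or above that of Dhcr7 in both, which is 0.217%. Intervals here and below cover counting error only.

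Most reads of Dhcr7 that were ISM and spliced came from 1 model with the complete coding region. This model has 8 exons and 2346 bases and spans chr7:143830234-143848409. It held 208 reads in replicate 1, 41.1% of the reads of Dhcr7 (36.9 to 45.4), and 129 in replicate 2, 54.4% (48.1 to 60.7). Its first base was the same in both libraries and equals the annotated start of Dhcr7-209, a shorter transcript. That base lies 7067 bases downstream of the upstream start used by Dhcr7-201, the 9-exon reference transcript of 2815 bases, and 20 bases downstream of a start in RefSeq. The coding region of Dhcr7 runs from 143836644 to 143847517 in the later exons, so the model lacks only untranslated sequence of Dhcr7-201. Of 13 annotated Dhcr7 transcripts, 4 have a complete coding region, and none of these has the intron chain of this model as its entire chain. Over 3555 genes with at least 20 reads in each library and a spliced model, the most read spliced model was ISM in 111 genes (3.12%) and both ISM and complete for the coding region in 31 (0.872%). Of the 7 sterol ring genes among them, Dhcr7 was the only one of either kind.

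Sorted by the place where the model begins, 237 of 506 reads (46.8%, 42.5 to 51.2) and 150 of 237 (63.3%, 57.0 to 69.2) began in this inner start region, between 143830234 and 143830258. The upstream exon had 1 read in each library. A further 29 and 17 reads (5.73% and 7.17%) began at 143836651, inside the exon with the start codon and past its first base, and 64 and 19 reads (12.6% and 8.02%) began in other downstream exons. Models of 1 exon equal to the last exon, chr7:143847053-143848409 with 1357 bases, took 170 reads (33.6%, 29.6 to 37.8) in replicate 1 and 49 (20.7%, 16.0 to 26.3) in replicate 2. The leading models begin at annotated starts or exon boundaries, and the ends of the single reads are not part of the tables analysed here.

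The sequences near these starts are shown first as the 250 bases before the upstream RefSeq start (chr7:143822917-143823166, plus strand) and then as those before the inner RefSeq start (chr7:143829964-143830213, plus strand). Both are RefSeq promoters of build GRCm38.p6, and capitals mark GGGCGG and CCAAT on either strand. The junction line is the annotated mRNA of build GRCm38 at the first splice of the leading model, with the last bases of its first exon followed by the exon of the start codon, whose letters are in capitals.
Dhcr7 upstream: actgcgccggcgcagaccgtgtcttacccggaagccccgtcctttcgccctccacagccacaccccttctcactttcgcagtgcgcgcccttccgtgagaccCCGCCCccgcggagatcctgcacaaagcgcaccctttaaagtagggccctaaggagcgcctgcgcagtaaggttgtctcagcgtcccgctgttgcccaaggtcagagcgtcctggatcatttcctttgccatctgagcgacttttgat
Dhcr7 inner: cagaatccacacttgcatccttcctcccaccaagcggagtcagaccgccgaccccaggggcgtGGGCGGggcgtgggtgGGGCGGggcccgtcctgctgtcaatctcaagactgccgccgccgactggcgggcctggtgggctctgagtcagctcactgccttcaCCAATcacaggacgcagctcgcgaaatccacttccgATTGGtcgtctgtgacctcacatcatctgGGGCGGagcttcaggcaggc
Dhcr7 junction: ggattccgcactcagggcctgATGgcttcg
The upstream window holds 1 GGGCGG and 0 CCAAT, with 61.6% G and C, and the inner window holds 3 GGGCGG and 2 CCAAT, with 65.2%. The other RefSeq start, at 143823399, has neither motif in its window. These matches are a description of the letters and show no binding. The letters are those of the reference build, and differences between the B6 and CAST alleles were not examined.

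**Figure D2:**
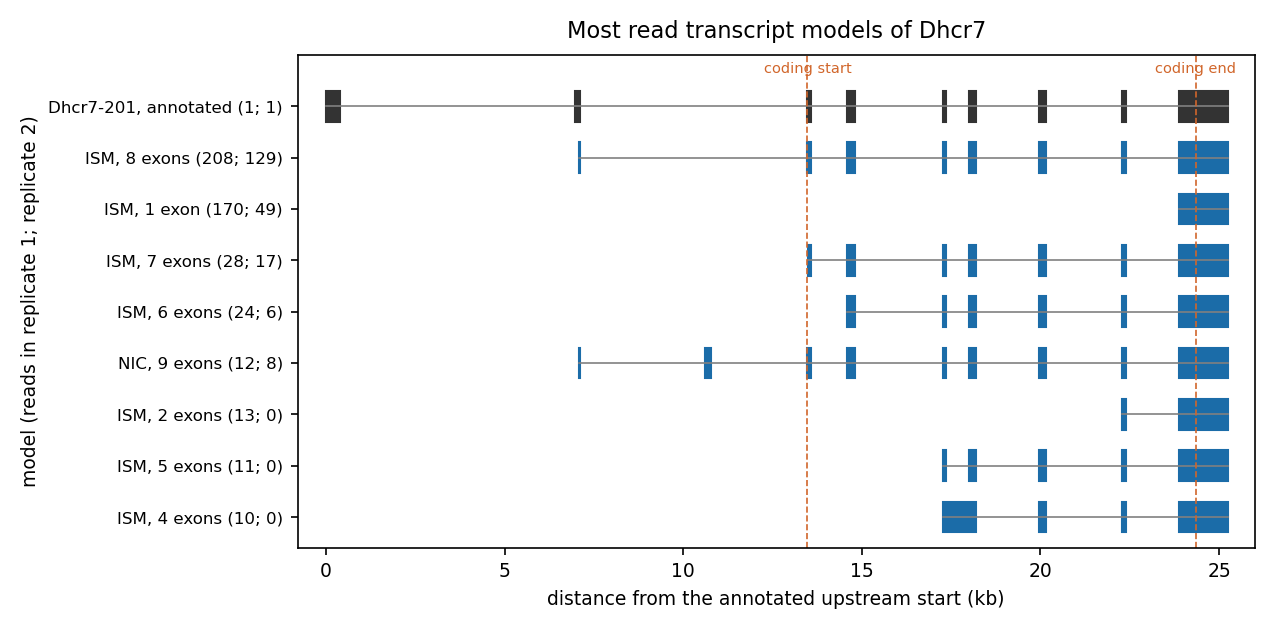
The 8 most read models of Dhcr7 below the annotated Dhcr7-201, drawn as exons (boxes) on a scale of kb from the upstream start, with the reads in replicates 1 and 2 in the labels. Dashed lines mark the first and last coding base. The 8-exon model (208 and 129 reads) starts 7067 bases downstream of the upstream start of Dhcr7-201 and keeps every coding exon.

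To set the 9 genes side by side whatever their class, a model was called coding-complete when it holds all coding introns, the start codon and the stop codon of an annotated transcript. Dhcr7 had 236 and 147 coding-complete reads, 46.6% (42.3 to 51.0) and 62.0% (55.7 to 68.0) of its reads. The 8-exon model gave 88.1% of them in replicate 1 and 87.8% in replicate 2. Per 1000000 coding-complete reads of all genes, Msmo1 stood at 491 ± 97.1 CPM and Dhcr7 at 397 ± 171 CPM, from 276 in replicate 1 and 518 in replicate 2. On that scale Msmo1, with 560 and 423, was the higher of the pair in replicate 1 and Dhcr7 in replicate 2, so their ranges overlapped. Counting only Known, NIC and NNC reads, called full-length, placed Dhcr7 at 54.3 ± 26.9 CPM and Msmo1 at 442 ± 80.5 CPM.

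In 5 genes nearly all reads were full-length in both libraries. Full-length reads were 95.3% and 97.0% of the reads of Sqle, 94.8% and 90.3% of Cyp51, 94.5% and 94.5% of Msmo1, 94.5% and 94.9% of Ebp and 93.5% and 92.6% of Sc5d. The median over the 3694 genes was 89.0% and 86.9%. Nsdhl, with fewer reads, had 36 of 40 and 8 of 8 in the Known class.

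Lss and Hsd17b7 were more mixed. Lss, whose transcript has 22 exons, had 34 of 56 reads (60.7%, 47.6 to 72.4) and 10 of 14 (71.4%, 45.4 to 88.3) in the Known class, with 10 and 1 ISM reads. Hsd17b7 had 19 of 38 reads (50.0%, 34.8 to 65.2) in replicate 1 and 6 of 23 (26.1%, 12.5 to 46.5) in replicate 2 in Genomic models of 1 exon. All of these lie inside the last exon of Hsd17b7-201, chr1:169949535-169953134, which has 3600 bases, and the intervals of the libraries overlap. One-exon reads within the last exon were thus 33.6% and 20.7% of Dhcr7 reads, where they were classed ISM, and 50.0% and 26.1% of Hsd17b7 reads, where they were classed Genomic.

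The full-length share differed between the libraries in 533 of 3694 genes (percent called 14.4, Fisher's exact test, Benjamini-Hochberg adjusted p under 0.05). It was past the threshold in 0 of the 7 sterol ring genes with enough reads, where Dhcr7 had 6.52% and 9.70% (adjusted p = 0.38, Fisher's exact test) and Hsd17b7 50.0% and 73.9% (adjusted p = 0.33, Fisher's exact test). The lowest unadjusted p of the 7 was 0.11 by the same exact test, so none was under 0.05. The coding-complete share differed in 476 of 3570 genes (percent called 13.3) and in 1 of the same 7 genes, Dhcr7, at 46.6% and 62.0% (adjusted p = 0.0018, Fisher's exact test). Replicate 2 thus had the larger coding-complete share and the smaller share of 1-exon reads for Dhcr7, while over all annotated reads its coding-complete share was the smaller, 68.5% against 74.6%.

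**Figure D3:**
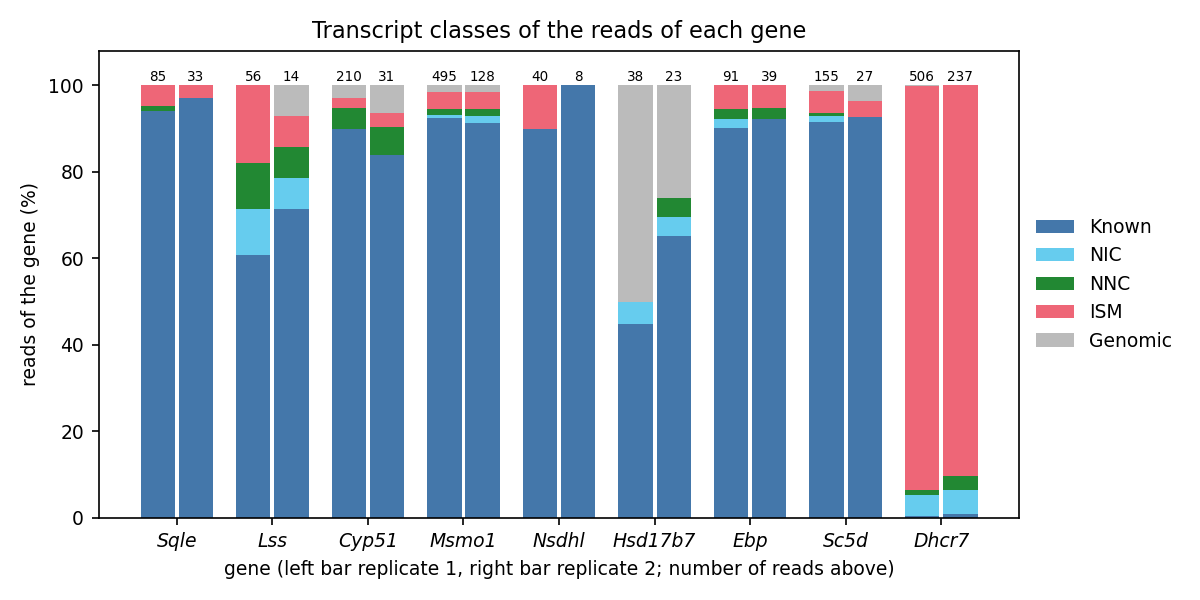
Share of the reads of each gene in each model class, in percent, with replicate 1 on the left and replicate 2 on the right of each pair and the number of reads above the bar. Dhcr7 is over 90% ISM in both libraries, and Hsd17b7 has the largest Genomic share, 50.0% and 26.1%.

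Apart from Dhcr7, each gene was led by its first annotated transcript. Of the full-length reads, Sqle-201 (11 exons, 2758 bases) took 80 of 81 and 32 of 32, and Nsdhl-201 (8 exons, 2168 bases) took 36 of 36 and 8 of 8. Msmo1-201 (6 exons, 2044 bases) took 97.9% and 96.7%, Ebp-201 (5 exons, 1743 bases) 95.3% and 97.3%, Cyp51-201 (10 exons, 3931 bases) 95.0% and 92.9%, and Sc5d-201 (6 exons, 4787 bases) 93.8% and 100%. Lss-201 took 34 of 46 and 10 of 12. Hsd17b7-201 (9 exons, 4612 bases) took 15 of 19 and 14 of 17, and Hsd17b7-202 (8 exons, 1446 bases) 2 and 1. Hsd17b7 was the only gene of the 9 with a second annotated transcript at 5% or more of its full-length reads. Dhcr7 had 22 full-length isoforms on 33 and 23 reads, led by an unannotated one with 12 and 8 reads (36.4% and 34.8%).

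The share of the leading isoform differed between the libraries in 31 of 2799 genes (percent called 1.11, Fisher's exact test) and in 0 of the 6 sterol ring genes tested. All 6 had an adjusted p of 1 by that exact test, and the lowest unadjusted p was 0.36, for Sc5d. For Dhcr7 the test covered 33 and 23 full-length reads and left out the 8-exon ISM model. That model held 41.1% (36.9 to 45.4) and 54.4% (48.1 to 60.7) of all Dhcr7 reads, and its share was not tested.

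The 9 genes had 49 unannotated spliced models, told apart by their introns, and 7 of these were found in both libraries with at least 2 reads in one of them. Dhcr7 had 4 of the 7. Its leading one, NIC with 9 exons and 2515 bases, had 12 and 8 reads, begins at the same base as the 8-exon model and adds an untranslated exon, chr7:143833768-143833936, which is annotated in Dhcr7-208. The second, NIC with 9 exons and 2471 bases, had 2 reads in replicate 1 and begins at 143830238, and the same introns had 2 reads in replicate 2 in a model of 2461 bases that begins at 143830247. The next, with 8 exons and 2369 bases, had 2 and 3 reads, was classed NIC in one library and NNC in the other, and removes an intron at chr7:143830313-143836637. These 3 hold the complete coding region. The remaining one, NIC with 7 exons and 2073 bases in replicate 1 and 2061 in replicate 2, had 3 and 1 reads and leaves out 273 coding bases between 143840433 and 143841339, which is 91 codons.

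The other 3 models came from 3 genes. In Cyp51 an NNC model with 11 exons and 3442 bases had 4 and 2 reads, and its additional intron of 164 bases (chr5:4081193-4081356) lies in the last exon, outside the coding region. In Msmo1 an NNC model with 6 exons and 1877 bases had 3 and 2 reads, with an unannotated intron of 5522 bases (chr8:64727909-64733430) and the coding region intact. In Hsd17b7 a NIC model with 8 exons and 4555 bases had 2 and 1 reads and skips a coding exon of 57 bases (chr1:169959423-169959479), 19 codons. With so few reads, no difference between the libraries in these models was detectable at this depth.

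No conditions are compared in this study, so the genes were compared only between the 2 libraries of its group. For each gene, an exact binomial test (two-sided) set its reads against library sizes scaled by TMM, with p-values adjusted over all 9885 genes with at least 10 reads. This test compares the libraries and takes no spread between animals into account. Over all genes, 1383 passed (14.0%), 777 higher in replicate 2 (7.86%) and 606 lower (6.13%). Of the 9 sterol ring genes, 1 was higher in replicate 2, 3 were lower and 5 did not pass. Their median log2 ratio, of scaled CPM with 1 CPM added, was -0.41, against -0.0074 over all genes tested.

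The largest difference was that of Cyp51, which had 210 reads in replicate 1 and 31 in replicate 2 and was 2.34-fold lower in replicate 2 (95% interval 1.60 to 3.52, adjusted p = 4.5e-05, exact binomial test). Sc5d, with 155 and 27 reads, was 1.98-fold lower (1.31 to 3.10, adjusted p = 0.0073, exact binomial test). Msmo1, with 495 and 128 reads, was 1.33-fold lower (1.10 to 1.63, adjusted p = 0.028, exact binomial test), and this call was lost in 5 of 8 alternatives (adjusted p from 0.0067 to 0.094 over the 8, exact binomial test). The log2 ratio of Msmo1 stayed between -0.48 and -0.34 in these, against -0.41. Dhcr7, with 506 and 237 reads, went the other way and was 1.36-fold higher in replicate 2 (1.16 to 1.59, adjusted p = 0.0019, exact binomial test). In full-length reads, 33 and 23, the log2 ratio of Dhcr7 was 1.05 and no longer passed (adjusted p = 0.052, exact binomial test, over a range of 1.2e-07 to 0.052).

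The other 5 genes did not pass. Their log2 ratios of replicate 2 to replicate 1 were 0.17 for Sqle, -0.45 for Lss, -0.76 for Nsdhl, 0.79 for Hsd17b7 and 0.31 for Ebp, with 8 to 39 reads in replicate 2. Hsd17b7, with an adjusted p of 0.17 by the exact binomial test, passed when coding-complete reads alone were counted, 17 and 16 reads with a log2 ratio of 1.48 (adjusted p = 0.028, exact binomial test, over a range of 0.026 to 0.48 in all alternatives). With coding-complete reads, 1137 of 7208 genes were called (percent called 15.8). Over all these genes 8.74% were higher in replicate 2 and 7.03% lower. Of the 9 sterol ring genes, 2 were then higher, Hsd17b7 and Dhcr7 with a log2 ratio of 0.92, and 2 were lower, Cyp51 at -1.17 and Sc5d at -0.85.

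By length of the leading transcript, genes over 3 kb had a median log2 ratio of -0.03, with quartiles of -0.55 and 0.50. This class holds Cyp51 and Sc5d, which were lower in replicate 2, and Lss and Hsd17b7, which did not pass. Genes of 2 to 3 kb had a median of -0.15, and this class holds Msmo1, which was lower, and Dhcr7, which was higher. Genes of 1 to 2 kb, among them Ebp, had a median of -0.04. Genes of up to 1 kb, a class without a sterol ring gene, had a median of 0.35. The part of length in these ratios was not tested.

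**Figure D4:**
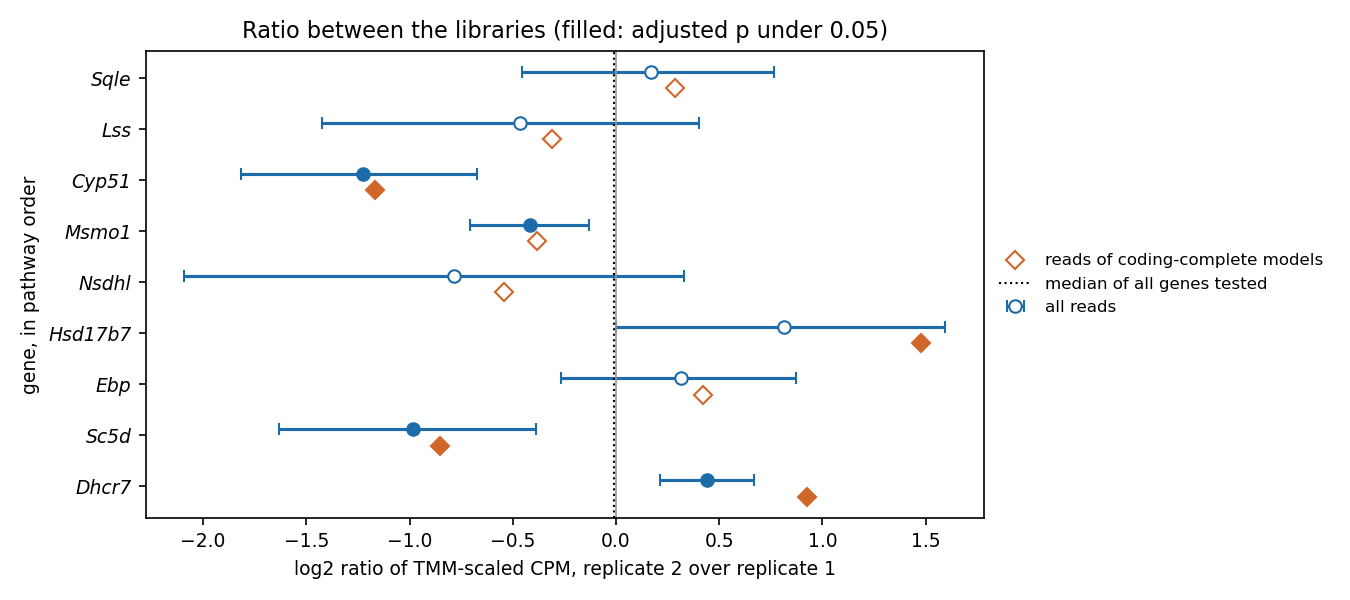
Log2 ratio of TMM-scaled CPM, replicate 2 over replicate 1, for each gene in pathway order: circles with 95% intervals for all reads and diamonds for coding-complete reads (1 CPM added), filled where the adjusted p is under 0.05. Cyp51, Msmo1 and Sc5d lie left of 0 and Dhcr7 lies right of it, while the dotted median of all genes is near 0.

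The 22 other genes of sterol synthesis and its control in the lists were read in both libraries, and 4 were higher in replicate 2, 3 lower and 15 did not pass, with a median log2 ratio of -0.22. Over all genes tested, 7.86% were higher and 6.13% lower. With total reads as the scaling, 4 of the 22 were higher and 5 lower. On that scaling 650 of all 9885 genes tested were higher and 728 lower. Of the 9 genes of the mevalonate arm, which builds squalene from acetyl groups, 0 were higher and 2 lower, with a median of -0.30: Hmgcs1, which makes the precursor of mevalonate, had 841 and 115 reads (log2 ratio -1.33, adjusted p = 5.1e-23, exact binomial test), and Fdps, farnesyl diphosphate synthase, had 864 and 148 (-1.01, adjusted p = 1.9e-15, exact binomial test). The arm summed to 2104 and 1093 CPM. Fdft1, squalene synthase, which feeds Sqle, stood at 70.8 and 67.5 CPM, a log2 ratio of 0.0039 that did not pass.

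Tm7sf2 and Lbr, which both encode C14-reductases acting after Cyp51, had 38 and 20 reads and 28 and 5 reads. Tm7sf2 stood at 33.2 and 48.2 CPM (log2 ratio 0.60) and Lbr at 24.5 and 12.1 CPM (log2 ratio -0.90). Neither passed with all reads. With coding-complete reads, 15 and 14, Tm7sf2 had a log2 ratio of 1.46 and an adjusted p that rounds to 0.05 (exact binomial test). Lbr, with 16 and 5 such reads, had a log2 ratio of -0.06.

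The 4 genes listed as electron donors to the oxygen-using steps had a median log2 ratio of 1.00 and summed to 1135 and 2074 CPM. Cytochrome b5 and its reductase pass electrons to Msmo1 and Sc5d, and Por, cytochrome P450 reductase, passes them to Sqle and Cyp51. Cyb5a and Cyb5b encode different forms of cytochrome b5, and which form serves these steps was not tested. Cyb5a had 496 and 335 reads (log2 ratio 0.97, adjusted p = 2.9e-18, exact binomial test), Cyb5b 331 and 234 (1.03, adjusted p = 2.9e-14) and Cyb5r3 236 and 208 (1.35, adjusted p = 9.1e-20), all higher in replicate 2. Por had a log2 ratio of 0.03 and did not pass. Of the 7 genes of SREBP control, which sense sterols and switch the pathway, Mbtps1, a protease that cleaves SREBP, had 41 and 33 reads and was higher (log2 ratio 1.20, adjusted p = 0.0054, exact binomial test), Insig1, which holds SREBP back, had 469 and 82 and was lower (-0.98, adjusted p = 4.6e-08, exact binomial test), and 5 did not pass, with a list median of 0.02.

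**Figure D5:**
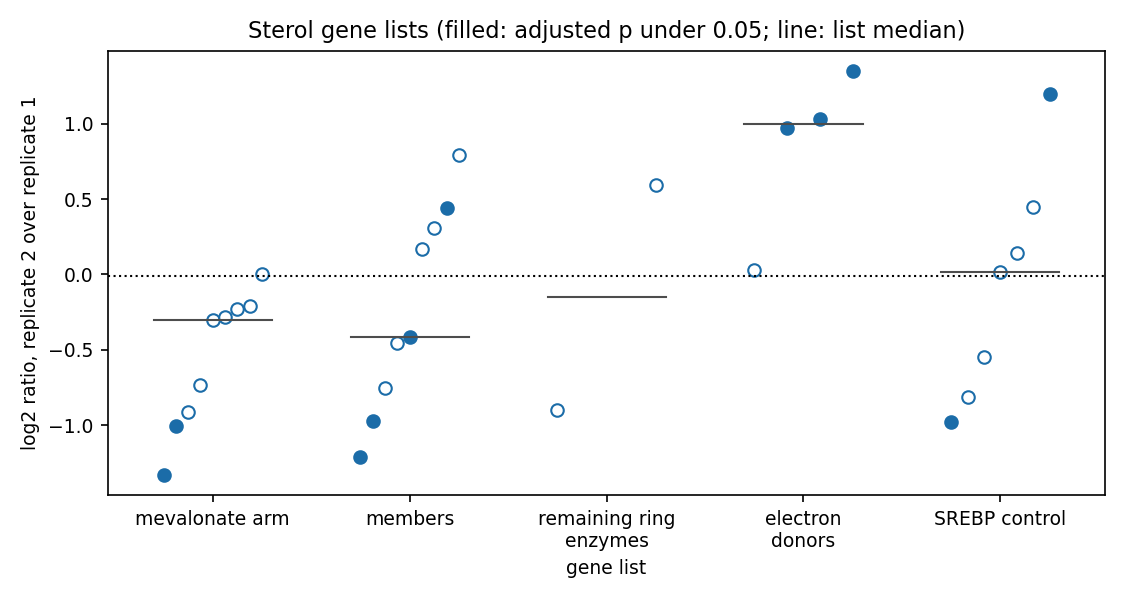
Log2 ratio of replicate 2 to replicate 1 for each gene of 5 lists, with filled points where the adjusted p is under 0.05 and a line at the list median. The medians run from -0.41 for the 9 sterol ring genes to 1.00 for the 4 genes listed as electron donors, and the dotted line marks the median of all genes.

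The promoters were searched for letters known from sterol-regulated genes, in RefSeq windows of 250 bases before to 50 after each start (GRCm38.p6, both strands). Of the 9 genes, 8 matched, with 10 windows, 3 of them of Dhcr7. Sqle was not matched. The sterol regulatory element TCACNCCAC was in 0 of the 8 genes and in 1.24% of 32851 promoters. No match says only that these letters are not in these windows of the reference build. GGGCGG, the core of the GC box, was in 9 of the 10 windows and in 8 of 8 genes, and in 35.7% of all promoters. CCAAT was in 8 of the 10 windows and in 8 of 8 genes, and in 37.4% of all promoters. In Dhcr7 the inner window holds all CCAAT matches of the gene.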

How the data were processed

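RNA of 2 adrenal libraries was sequenced as long reads. The ENCODE pipeline for long reads made the tables, per the labels' protocols, and the deposited values are read counts of each transcript model, without normalization. Per the file headers and accompanying notes, models were compared with GENCODE M21 on mm10, each library on its own, and TALON is named as their source. Exon numbers and lengths in bases were deposited by the authors in the same tables. Not given in the sources used here are the aligner, tool versions, filters and how reads of overlapping genes were assigned.

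Counts were summed per gene and expressed as CPM of annotated genes, with spike-ins (2.12% and 3.65% of reads) left out. Total depth was 1223776 and 453761 reads. TMM factors (edgeR 4.0.16, R 4.3.3) were 1.03 and 0.976, with a pseudocount of 1 CPM in log2 ratios but not in folds. Exact binomial and Fisher's exact tests (SciPy 1.17.1, two-sided) were adjusted by Benjamini-Hochberg over all genes with at least 10 reads, or 20 in each library, and tested on simulated data. Intervals are 95% Wilson for shares, exact Poisson for levels and Clopper-Pearson for folds. One gene of the lists is not reported here. The members and lists were chosen with earlier results of these data known. Named were all members, other sterol ring genes, list genes past the threshold, known transcripts with 5% or more of full-length reads, and unannotated models with at least 2 reads in one library and 1 in the other. Alternatives included DESeq2 1.42.0 size factors.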

Additional observations from a re-analysis of the deposited data

How the results depend on the processing

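Summed CPM of the 9 genes, 1383 with all reads, was 1077 with full-length reads and 1512 with coding-complete reads, and leaving out each library in turn gave 1303 to 1464. Of the 9 positions in the order by mean CPM, 0 were kept per kb of the most read annotated transcript, 2 per kb of the most read spliced model, 1 with full-length reads and 5 with coding-complete reads. Sqle changed sign, from a log2 ratio of 0.17 to -0.15, when replicate 1 was thinned to the depth of replicate 2, and passed in neither. Thinning used a random draw that was not repeated, so all thinned values hold for that draw only. Members called between the libraries numbered 3 or 4 in every alternative, and Cyp51 and Sc5d passed in all of them. Msmo1 did not pass with full-length reads (adjusted p = 0.083, exact binomial test), without Genomic reads (0.09), with models of more than 1 exon (0.094), thinned (0.088) or coding-complete (0.055), and passed in the 3 others. Hsd17b7 passed with full-length reads (adjusted p = 0.027, exact binomial test), without Genomic reads (0.026), with more than 1 exon (0.027) and coding-complete (0.028). Among members, 1 differed in the coding-complete share and 0 in the full-length share. Coding-complete models and the length of the most read spliced model were chosen after seeing the data. Other sterol genes called numbered 6 to 9, of 20 to 22 tested. The number called over all genes also changed with the setting. It was 500 higher and 500 lower of 8052 when thinned, and 689 and 513 of 16945 with at least 1 read. With full-length reads it was 674 and 575 of 8202, and without Genomic reads 794 and 597 of 9133. With models of more than 1 exon it was 677 and 553 of 8510, and with DESeq2 size factors 762 and 610 of 9885. The causes were not tested. No paired analysis was possible because the labels give a single group. In replicate 2, Nsdhl (8 reads) and Lss (14 reads) limit what could be detected.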
